A study of Mus musculus with 9 samples.

Results

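Glycolysis turns glucose into pyruvate and lactate in the cytosol, after glucose has entered the cell through facilitated transporters of the SLC2A (GLUT) family. Its controlled steps are glucose phosphorylation by hexokinases and the commitment step of phosphofructokinase, and most steps are run by isozymes that differ between cell types. Blood stem and progenitor cells and maturing myeloid cells rely on this pathway, and many of its genes are known targets of the hypoxia-inducible factors (HIF) and of MYC. The genes described here were chosen by name. They are Slc2a1, Hk2, Gpi1, Pfkl, Pfkp, Aldoa, Pgk1, Eno1, Pkm and Ldha, which make 10 of the 43629 Ensembl genes in the table. All 10 passed the filter on low values and were among the 15997 genes tested.

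Cells carrying c-KIT (CD117), the stem cell factor receptor, were selected from the bone marrow of C57BL/6 mice and profiled by RNA-seq, with 3 libraries in each of 3 groups. All mice had received pIpC, a double-stranded RNA that induces interferon and so switches on the Mx1 promoter. WT mice are those labelled wild type. KI mice had Mx1-Cre with Cbfb+/56M, an allele from which Cre releases the leukaemia fusion CBFB-MYH11. KI_Chd7del mice had both of these and Chd7f/f, floxed alleles of a chromatin remodeller. Cre under the Mx1 promoter acts in interferon-responsive cells, of which marrow cells are only a part, and the WT label names neither Cre nor a floxed allele. The fusion and Cre therefore cannot be told apart in comparisons with WT. The labels give neither age nor sex, nor whether each library had its own mouse. The p-values thus rest on the spread among libraries, which may be technical.

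The authors' table held whole numbers that, from their own pattern, are read numbers scaled by a factor per library and rounded, called normalised values here. They summed to between 37.5 and 46.2 M (M, 1000000) per library, and the factors estimated from their rounding pattern place the depth between 39.3 and 47.5 M reads. Myh11, the gene behind the fusion's tail, was at 8, 9 and 5 in the WT libraries, 219, 194 and 176 in those of KI, and 187, 164 and 176 in those of KI_Chd7del. Chd7 was at 3471, 3745 and 3982 in the WT libraries, 1979, 2934 and 2009 in those of KI, and 1862, 1794 and 1921 in those of KI_Chd7del. In Chd7, KI differed from WT by -0.72 on the log2 scale (adjusted p = 0.00154 by limma). KI_Chd7del differed from KI by -0.29, which was not called (adjusted p = 0.121). Values per gene do not resolve a floxed exon, so they do not show whether Chd7 was deleted. Kit, the gene of the selected receptor, was at 7362, 7354 and 7797 in the WT libraries. It was at 3868, 3226 and 3521 in those of KI and at 6131, 7732 and 8508 in those of KI_Chd7del. In Kit, KI differed from WT by -1.09 on the log2 scale (adjusted p = 3.88e-05 by limma). KI_Chd7del differed from KI by 1.07 (adjusted p = 0.000212) and from WT by -0.02 (adjusted p = 0.889).

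**Figure D1:**
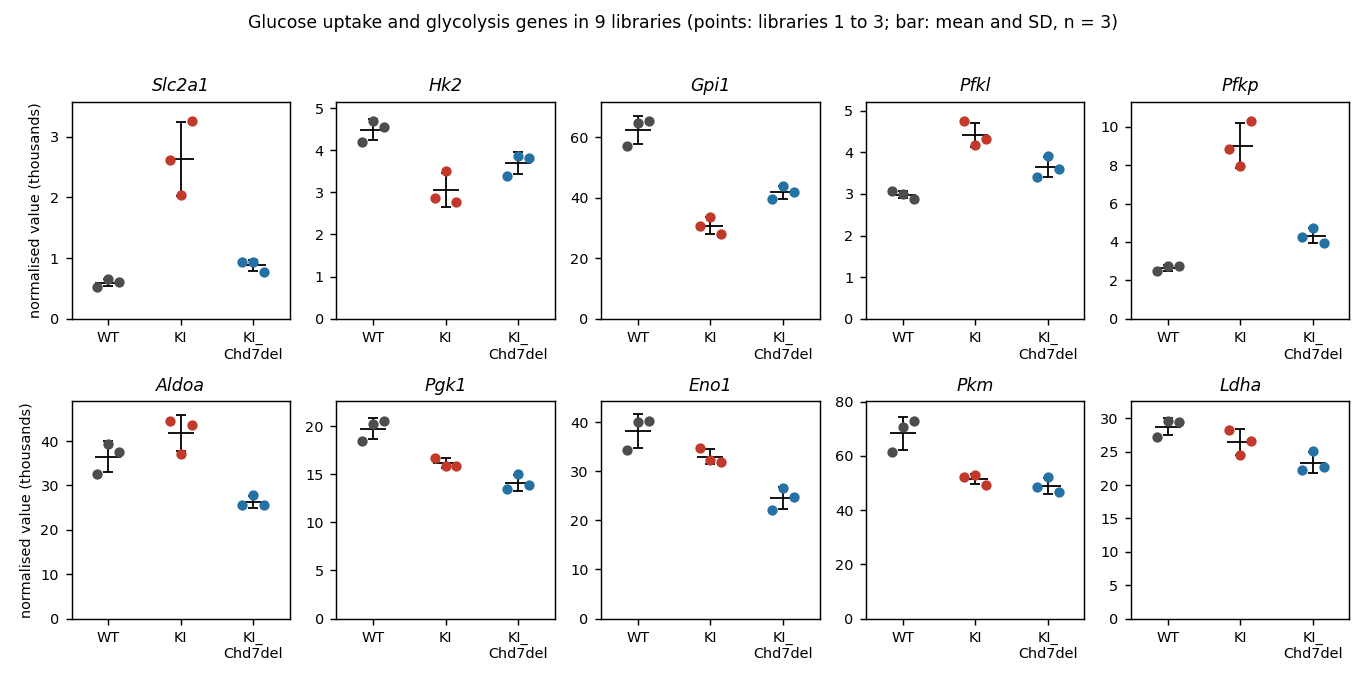
Normalised values (vertical axis, divided by 1000, starting at 0) of the 10 genes in the 3 libraries of each group (horizontal axis). Points are libraries and the bars give the mean and SD (n = 3). Slc2a1, Pfkl and Pfkp are highest in KI, Hk2 and Gpi1 are lowest in KI, and Aldoa, Pgk1 and Eno1 are lowest in KI_Chd7del.

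Slc2a1, Pfkp and Pfkl were higher in KI than in WT and lower in KI_Chd7del than in KI. Slc2a1 (ENSMUSG00000028645, chromosome 4, 119108711 to 119137983, GRCm38), which encodes the glucose transporter GLUT1, had normalised values of 527, 649 and 607 in WT. It stood at 2614, 2038 and 3255 in KI and at 942, 931 and 777 in KI_Chd7del. The ranges of the 3 groups were apart, and KI library 2 was the lowest of its group. KI exceeded WT 4.37-fold in Slc2a1 (log2 2.13, SE 0.16, adjusted p = 6.16e-06 by limma). In KI_Chd7del it fell by 1.56 against KI on the log2 scale (SE 0.16, adjusted p = 0.000187), and stood 0.57 above WT (SE 0.16, adjusted p = 0.0165). The last call was lost without WT library 1 (log2 0.49, adjusted p = 0.0578) and without KI_Chd7del library 2 (0.53, adjusted p = 0.0533).

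Phosphofructokinase commits fructose 6-phosphate to glycolysis and is built from subunits that are named after platelet (Pfkp), liver (Pfkl) and muscle (Pfkm). Pfkp (ENSMUSG00000021196, chromosome 13, 6579768 to 6648777) had 2483, 2733 and 2735 in the WT libraries, 8828, 7936 and 10280 in those of KI, and 4252, 4733 and 3962 in those of KI_Chd7del. Again no groups overlapped, and the KI_Chd7del libraries lay between the other groups. Pfkp rose 3.38-fold in KI against WT (log2 1.76, SE 0.10, adjusted p = 1.27e-06). It fell by 1.06 in KI_Chd7del against KI (SE 0.10, adjusted p = 0.000123) and was 0.70 above WT (adjusted p = 0.000479). Pfkl (ENSMUSG00000020277, chromosome 10, 77986947 to 78010083) had 3067, 3003 and 2885 in the WT libraries, 4746, 4172 and 4325 in those of KI, and 3417, 3912 and 3607 in those of KI_Chd7del. It kept the same order of groups with a smaller range, at 0.56 for KI against WT (SE 0.07, adjusted p = 8.39e-05). Against KI, Pfkl fell by 0.28 in KI_Chd7del (adjusted p = 0.0105), and it stood 0.29 above WT (adjusted p = 0.0065).

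Hk2 and Gpi1 moved the other way. Hk2 (ENSMUSG00000000628, chromosome 6, 82725025 to 82774454), the inducible hexokinase that phosphorylates glucose on entry, had 4204, 4685 and 4553 in the WT libraries, 2857, 3515 and 2774 in those of KI, and 3392, 3869 and 3803 in those of KI_Chd7del. KI lay below WT in each library, whereas KI library 2 overlapped KI_Chd7del. Against WT, Hk2 in KI fell by 0.56 (SE 0.09, adjusted p = 0.000752). It was 0.28 higher in KI_Chd7del than in KI (SE 0.09, adjusted p = 0.0415), a call lost under 9 of 22 alternative settings. Those included leaving out WT library 2 or 3, KI library 1 or 3, or KI_Chd7del library 2 or 3 (adjusted p = 0.0557, 0.0599, 0.127, 0.137, 0.119 and 0.109). Against WT, Hk2 in KI_Chd7del fell by 0.28 (adjusted p = 0.0346), lost under 10 of 22 settings, among them leaving out WT library 2 or 3 or KI_Chd7del library 1 or 3 (0.109, 0.093, 0.101 and 0.0552). Scaled to the column total, this difference was -0.04 (adjusted p = 0.765).

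Gpi1 (ENSMUSG00000036427, chromosome 7, 34201330 to 34230336), which converts glucose 6-phosphate to fructose 6-phosphate at the branch to the pentose phosphate pathway, had 56967, 64785 and 65220 in WT. It had 30546, 33553 and 27930 in those of KI and 39550, 43829 and 41826 in those of KI_Chd7del. The groups were apart, with KI lowest. Gpi1 fell by 1.02 in KI against WT, to 0.492 of the WT level (SE 0.09, adjusted p = 1.23e-05). It was 0.45 higher in KI_Chd7del than in KI (SE 0.09, adjusted p = 0.00423) and 0.58 lower than in WT (log2 -0.58, adjusted p = 0.0007). The sign and the call of Gpi1 and of Slc2a1, Pfkp and Pfkl in KI against WT and in KI_Chd7del against KI held under each of the 22 alternative settings.

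The promoter windows of these 4 genes are shown because Slc2a1 and Pfkp had the largest rises among the 10 genes in KI against WT, and Gpi1 and Hk2 the largest falls. Each holds 250 bases before to 50 after a RefSeq start (GRCm38.p6), written 5′ to 3′ on the gene's strand. Capitals mark the HIF core letters ACGTG or GCGTG and the RUNX letters TGTGGT (RUNX proteins are the DNA-binding partners of CBFB), on either strand. The E-box CACGTG, which MYC binds and which contains ACGTG, was searched too and is in none of the 4.
Slc2a1, chr4:119108495-119108794, plus strand: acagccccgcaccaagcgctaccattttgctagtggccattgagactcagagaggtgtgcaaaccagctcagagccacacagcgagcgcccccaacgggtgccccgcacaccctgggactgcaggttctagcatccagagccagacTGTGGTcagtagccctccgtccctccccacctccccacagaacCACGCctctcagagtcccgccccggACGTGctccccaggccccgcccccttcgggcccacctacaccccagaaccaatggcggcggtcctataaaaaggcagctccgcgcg
Pfkp, chr13:6648722-6649021, minus strand: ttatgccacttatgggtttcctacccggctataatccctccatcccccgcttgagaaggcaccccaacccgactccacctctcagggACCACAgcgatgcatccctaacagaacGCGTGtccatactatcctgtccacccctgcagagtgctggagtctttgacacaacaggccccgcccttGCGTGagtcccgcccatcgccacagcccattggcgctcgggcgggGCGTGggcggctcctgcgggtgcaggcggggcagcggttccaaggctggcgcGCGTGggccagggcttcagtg
Hk2, chr6:82774405-82774704, minus strand: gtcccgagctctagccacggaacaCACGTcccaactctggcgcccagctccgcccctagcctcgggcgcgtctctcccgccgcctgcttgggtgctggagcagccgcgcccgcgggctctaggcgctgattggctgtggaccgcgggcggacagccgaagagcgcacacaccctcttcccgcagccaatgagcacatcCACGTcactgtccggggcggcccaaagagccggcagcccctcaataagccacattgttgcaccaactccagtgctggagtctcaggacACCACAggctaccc
Gpi1, chr7:34230287-34230586, minus strand: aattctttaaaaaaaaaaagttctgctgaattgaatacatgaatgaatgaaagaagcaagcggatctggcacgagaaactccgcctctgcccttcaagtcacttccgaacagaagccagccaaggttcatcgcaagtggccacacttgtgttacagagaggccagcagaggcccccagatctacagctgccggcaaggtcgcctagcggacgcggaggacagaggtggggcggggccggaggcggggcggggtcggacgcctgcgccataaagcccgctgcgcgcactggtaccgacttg
Slc2a1 held 2 HIF core matches and 1 RUNX match, Pfkp 4 and 1, Hk2 2 and 1, and Gpi1 held no match. Among all 10 genes, which had 16 windows, 9 held a HIF core match in at least 1 window, 3 a RUNX match and 1 (Ldha) an E-box. Over all 32851 windows of 27025 genes, 43.8% held a HIF core match, 16.8% a RUNX match and 7.15% an E-box. Counted per gene as in the 10, with a match in any window, the shares were 46.7%, 18.9% and 8.09%. These shares were not matched to the 10 genes for base composition or for the number of windows per gene. Hk2, which fell, held the same kinds of match as Slc2a1 and Pfkp, which rose. A match describes letters only and is no measure of binding.

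The genes from aldolase to lactate dehydrogenase were abundant in each group and had their lowest means in KI_Chd7del. Aldoa (ENSMUSG00000030695, chromosome 7, 126795234 to 126800751), which splits fructose 1,6-bisphosphate, had 32656, 39305 and 37489 in the WT libraries, 44492, 37121 and 43627 in those of KI, and 25492, 27780 and 25484 in those of KI_Chd7del. WT and KI overlapped, and KI_Chd7del lay below both. The difference of KI from WT was 0.19 (SE 0.09, adjusted p = 0.105). It passed the test without KI library 2 (0.28, adjusted p = 0.0281), with quantile normalisation (0.36, adjusted p = 0.00592) and on the column total, taken whole or less the late neutrophil genes (0.42 and 0.25, adjusted p = 0.00188 and 0.0318). Aldoa fell in KI_Chd7del by 0.67 against KI (SE 0.09, adjusted p = 0.000873) and by 0.47 against WT (adjusted p = 0.00304).

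Eno1 (ENSMUSG00000063524, chromosome 4, 150236721 to 150248879), the enolase that forms phosphoenolpyruvate, had 34263, 40119 and 40209 in the WT libraries, 34811, 32287 and 31840 in those of KI, and 22193, 26543 and 24766 in those of KI_Chd7del. Like Aldoa it was lowest in KI_Chd7del, without overlap with either group. It fell there by 0.43 against KI (SE 0.09, adjusted p = 0.00529) and by 0.64 against WT (adjusted p = 0.000431). KI and WT overlapped in Eno1 and differed by -0.21 (adjusted p = 0.0701), a difference that passed without WT library 1 (-0.28, adjusted p = 0.0208), without KI_Chd7del library 1 (adjusted p = 0.0449) and with upper-quartile factors (-0.22, adjusted p = 0.0495). On the scale of the column total it was 0.02 (adjusted p = 0.84).

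Pgk1 (ENSMUSG00000062070, chromosome X, 106187100 to 106203699), the phosphoglycerate kinase that makes the first ATP of the pathway, had 18472, 20209 and 20536 in the WT libraries, 16722, 15876 and 15874 in those of KI, and 13479, 15081 and 13838 in those of KI_Chd7del. The groups stepped down without overlap. Against WT, Pgk1 fell by 0.29 in KI (SE 0.06, adjusted p = 0.00347) and by 0.48 in KI_Chd7del (adjusted p = 0.000302). The first of these calls was lost when scaled to the column total (-0.06, adjusted p = 0.393) and with quantile normalisation (-0.11, adjusted p = 0.0663). Its fall of 0.19 in KI_Chd7del against KI (adjusted p = 0.0358) was lost under 12 of 22 settings. These included leaving out WT library 2 (0.0509), each KI library in turn (0.112, 0.0551 and 0.0706) and KI_Chd7del library 1 or 3 (0.0851 and 0.102).

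Pkm (ENSMUSG00000032294, chromosome 9, 59656368 to 59679375) encodes the muscle-type pyruvate kinase, whose M1 and M2 splice forms a value per gene cannot tell apart. It had 61433, 70730 and 72822 in the WT libraries, 52318, 52866 and 49407 in those of KI, and 48375, 52229 and 46491 in those of KI_Chd7del. Both fusion groups lay below WT and overlapped each other. Pkm fell by 0.40 in KI (SE 0.08, adjusted p = 0.00257) and by 0.48 in KI_Chd7del (adjusted p = 0.00152) against WT, while KI_Chd7del and KI differed by -0.07 (SE 0.08, adjusted p = 0.513). The call in KI was lost when scaled to the column total (-0.17, adjusted p = 0.0594) and with quantile normalisation (-0.11, adjusted p = 0.174). Pklr, the liver and red cell pyruvate kinase, had 3919, 3853 and 3666 in the WT libraries, 337, 372 and 121 in those of KI, and 171, 544 and 1049 in those of KI_Chd7del. It fell by 3.94 in KI (SE 0.61, adjusted p = 0.000466) and by 3.05 in KI_Chd7del (adjusted p = 0.00318), both relative to WT. KI_Chd7del and KI overlapped in Pklr and differed by 0.89 (adjusted p = 0.273), or by 1.60 without KI_Chd7del library 1 (log2 1.605, adjusted p = 0.027).

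Ldha (ENSMUSG00000063229, chromosome 7, 46841475 to 46855627), the lactate dehydrogenase subunit that favours lactate formation, varied least. It had 27225, 29576 and 29462 in the WT libraries, 28300, 24504 and 26600 in those of KI, and 22218, 25148 and 22656 in those of KI_Chd7del. Only KI_Chd7del and WT did not overlap, with a fall of 0.30 (SE 0.08, adjusted p = 0.009) that was not called when scaled to the column total (-0.06, adjusted p = 0.52) or with quantile normalisation (-0.07, adjusted p = 0.399). KI differed from WT by -0.12 (adjusted p = 0.193), which turned to 0.11 and 0.10 under those scalings (adjusted p = 0.203 and 0.197). KI_Chd7del differed from KI by -0.18 (adjusted p = 0.0821), a difference that passed without KI library 2 (-0.23, adjusted p = 0.0419).

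**Figure D2:**
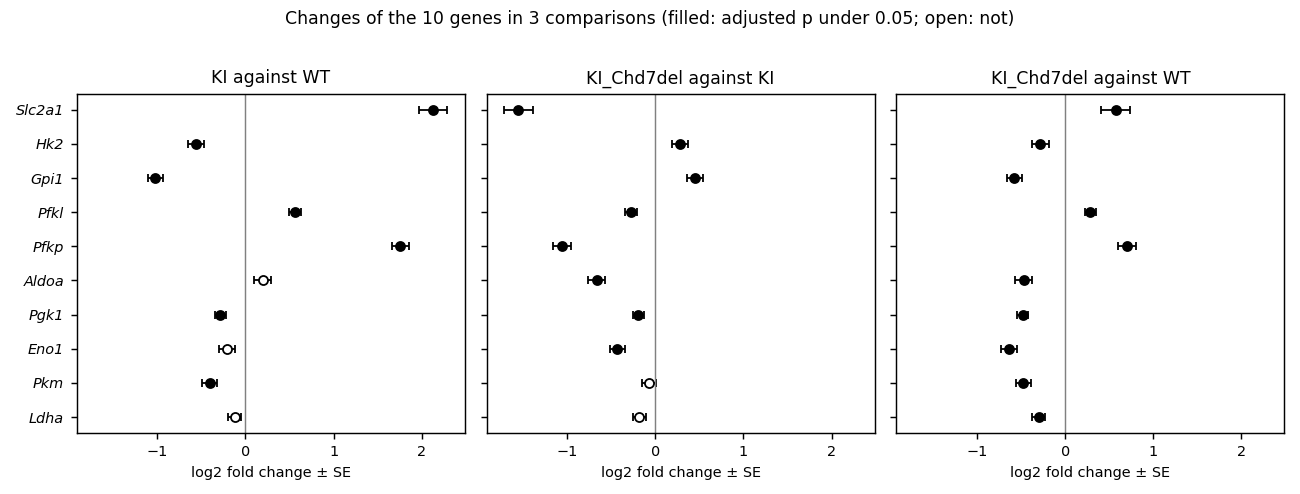
Log2 fold changes (horizontal axis) with SE for the 10 genes (vertical axis) in the 3 comparisons, which share libraries. Filled points passed an adjusted p of 0.05. Slc2a1 stands at 2.13 in KI against WT and at -1.56 in KI_Chd7del against KI.

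Counted together, 3 of the 10 genes rose in KI against WT and 4 fell, beside 31.8% of all genes tested that rose and 27.2% that fell. In KI_Chd7del against KI, 2 rose and 6 fell, beside 17.5% and 22.9% of all genes. In KI_Chd7del against WT, 3 rose and 7 fell, beside 24% and 24.3%. The share of the 10 that changed was thus near that of all genes in the first comparison (7 of 10 beside 58.9%). It was above that of all genes in the others (8 of 10 beside 40.4%, and all 10 beside 48.4%). With column-total scaling or quantile normalisation, 3 of the 10 rose and 5 fell in KI_Chd7del against WT. Of the 15997 genes tested, 7004 rose and 1892 fell there on the column total, and 3722 rose and 3739 fell with quantile normalisation. The 8 called in KI_Chd7del against KI included Hk2 and Pgk1, whose calls were lost under 9 and 12 alternative settings. Genes were not matched for level in these shares. The medians of the 10 were -0.16, -0.24 and -0.39, beside 0.02, -0.01 and 0.02 over all genes. On the scale of the column total, medians of the 10 were 0.06, -0.22 and -0.14, when those of all genes were 0.25, 0.01 and 0.26. The groups did not overlap in 7, 7 and 10 of the genes, beside 67.6%, 52% and 57.6% of all genes.

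Levels of different genes were compared per transcript length, as values per 1000000 of the column total and per kilobase. The order depends on the lengths used. Gpi1 and Eno1 were taken at 2884 and 2027 bases, where the union of their exons has 6452 and 5379. With exon-union lengths Eno1 came below Pgk1 and Ldha in WT. In WT, Pkm (624 ± 34.5, SD, n = 3), Aldoa (523 ± 34.6), Gpi1 (480 ± 20.0), Eno1 (418 ± 23.8), Ldha (352 ± 5.32) and Pgk1 (240 ± 5.34) formed an abundant set. Far below them came Hk2 (18.1 ± 0.526), Pfkl (17.8 ± 1.14), Pfkp (14.2 ± 0.315) and Slc2a1 (4.05 ± 0.315). The ranges of Hk2 and Pfkl over the libraries overlapped, and so did those of Aldoa and Gpi1, although Aldoa was above Gpi1 within each WT library. In KI the order changed: Aldoa (703 ± 67.3) stood above Pkm (553 ± 14.3), and Gpi1 (277 ± 23.9) dropped below Eno1 (424 ± 14) and Ldha (380 ± 24.8). At the low end Pfkp (56.8 ± 8.12), Pfkl (30.9 ± 1.72) and Slc2a1 (21.1 ± 5.10) had means above Hk2 (14.4 ± 1.92), of which Slc2a1 and Hk2 did not differ beyond their spread. In KI_Chd7del, Pkm (532 ± 28.8) led again, followed by Aldoa (447 ± 21) and Gpi1 (382 ± 20.0). Ldha (339 ± 22.1) and Eno1 (319 ± 28.8) came next and overlapped, although Ldha was above Eno1 within each library. Pfkp (27.5 ± 2.32) and Pfkl (25.8 ± 1.75) overlapped too. The 10 genes together took 0.588 ± 0.0256% of the library in WT, 0.57 ± 0.0112% in KI and 0.505 ± 0.028% in KI_Chd7del. The exact permutation test gave p = 0.3 for KI against WT (2-sided) and 0.1 for either comparison with KI_Chd7del, the smallest p that 3 against 3 allows. With the late neutrophil genes left out of the total, the 10 genes took 0.679% in WT, 0.582% in KI and 0.531% in KI_Chd7del. The difference of KI from WT was then -0.097 points in place of -0.017, and the exact permutation p was 0.1 in each comparison.

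The make-up of some isozyme families, which does not depend on library scaling, differed between the groups. GLUT1 and GLUT3 (Slc2a3) are the transporters usually found in blood cells. Per transcript length, Slc2a1 made up 5.51 ± 0.273% of the pair in WT, 27.3 ± 2.3% in KI and 15 ± 1.11% in KI_Chd7del (SD, n = 3). Slc2a3 itself had 10415, 13569 and 13319 in the WT libraries, 8730, 7308 and 9318 in those of KI, and 6155, 6076 and 5911 in those of KI_Chd7del. It fell in KI (-0.55, adjusted p = 0.00245) and again in KI_Chd7del against KI (-0.48, adjusted p = 0.0103), so in the latter comparison both transporters were lower.

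Among phosphofructokinases, Pfkp took 28.1 ± 1.9% in WT, 49.9 ± 3.71% in KI and 35.6 ± 1.76% in KI_Chd7del. The share of Pfkl was 35.1 ± 0.63%, 27.3 ± 1.7% and 33.5 ± 1.62%, although its own value rose in KI. Among hexokinases, Hk2 kept a small share, at 6.73 ± 0.186%, 6.96 ± 0.579% and 6.8 ± 0.242%. Hk3, an isozyme abundant in myeloid cells, went from 61.7 ± 2.29% in WT to 34.6 ± 7.05% in KI and 48.5 ± 2.21% in KI_Chd7del, and Hk1, the broadly expressed isozyme, took 31.5 ± 2.1%, 58.4 ± 7.63% and 44.7 ± 2.34%. The order of these isozymes depends on the lengths used: with exon-union lengths Hk3 took 72.5%, 47.7% and 61.5% and Hk1 19.1%, 42.1% and 29.4%, so that Hk3 led in KI as well. With those lengths Pfkp took 14.5%, 30.7% and 19.6% of the phosphofructokinases and Pfkm, the largest in each group, 52.9%, 39% and 47.3%. The difference in the Pfkl share in KI against WT was then -2.41 points in place of -7.82. In values, Hk3 fell in KI by 1.46 (SE 0.16, adjusted p = 4.43e-05). Hk1 rose by 0.27 (adjusted p = 0.0176), a call lost without WT library 1 or KI library 1 or 3 (adjusted p = 0.0502, 0.0674 and 0.0525).

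Ldha made up 91.5 ± 0.791% of the lactate dehydrogenases in WT, 98.4 ± 0.484% in KI and 92.9 ± 0.64% in KI_Chd7del. The complement, Ldhb, whose subunit favours pyruvate formation, had 1972, 1759 and 2043 in the WT libraries, 318, 382 and 225 in those of KI, and 1358, 1343 and 1152 in those of KI_Chd7del. Ldhb in KI fell by 2.67 against WT (SE 0.17, adjusted p = 2.34e-06) and rose by 2.08 in KI_Chd7del against KI (adjusted p = 6.33e-05). Aldoa (99.6% to 99.9% of Aldoa and Aldoc) and Eno1 (98.4% to 99.1% of the enolases) were nearly alone in their families. In the exact permutation tests of these shares, 2-sided, Slc2a1, Pfkp and Hk3 gave p = 0.1 in all 3 comparisons, the smallest p that 3 against 3 allows. Ldha and Pfkl gave 0.1 in the comparisons of KI with either group, and 0.2 and 0.3 for KI_Chd7del against WT. Hk2 gave 0.6, 0.8 and 0.7.

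**Figure D3:**
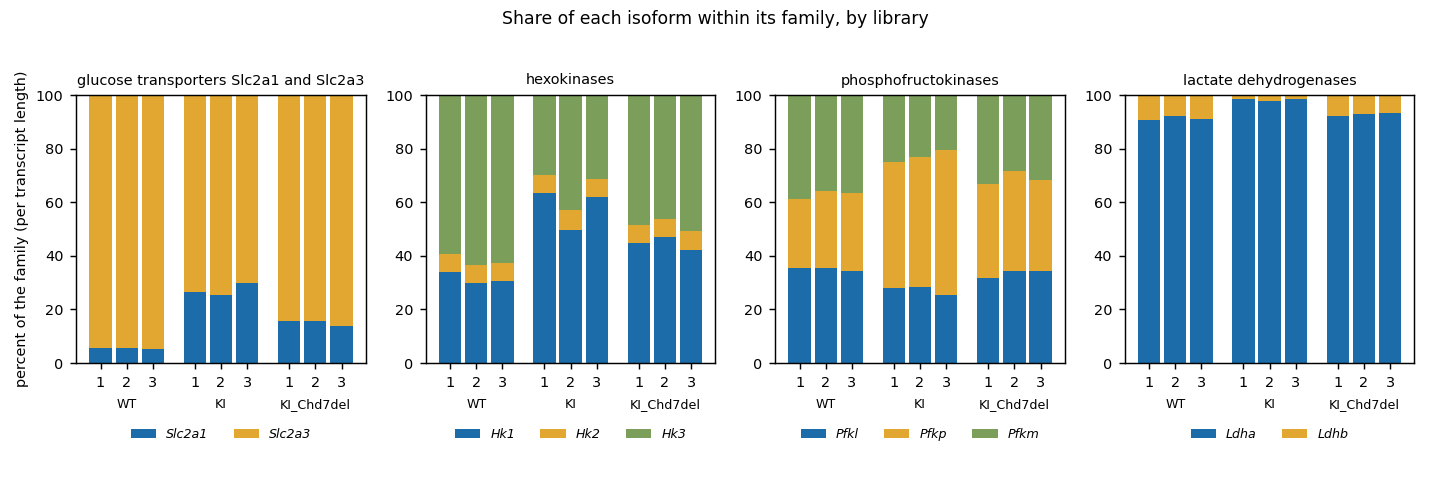
Percent of each isozyme or transporter (vertical axis, from 0 to 100, per transcript length) within 4 families in each of the 9 libraries (horizontal axis, libraries 1 to 3 by group). The share of Slc2a1 is between 5.24% and 5.79% in WT and between 25.3% and 29.8% in KI, and the share of Hk2 lies between 6.56% and 7.63% throughout.

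Steps of the pathway that the 10 genes leave out were taken from a list of 19 other glycolysis genes, of which 14 were tested. In KI against WT 4 rose and 6 fell, in KI_Chd7del against KI 3 rose and 5 fell, and in KI_Chd7del against WT 1 rose and 6 fell. On the scale of the column total 7 rose and 5 fell, 3 rose and 5 fell, and 4 rose and 4 fell, and the median in KI against WT went from -0.06 to 0.17. Gapdh, the glyceraldehyde 3-phosphate dehydrogenase, had 67669, 77238 and 77010 in the WT libraries, 83881, 78385 and 79618 in those of KI, and 55787, 68225 and 62234 in those of KI_Chd7del. Tpi1, the triose phosphate isomerase, had 15075, 14522 and 14866, then 17780, 15389 and 16615, then 12881, 14354 and 13181. Both fell in KI_Chd7del against KI, by 0.38 (adjusted p = 0.0116) and 0.30 (adjusted p = 0.00681). Neither passed in KI against WT (0.13 and 0.16, adjusted p = 0.273 and 0.0598), but both did when scaled to the column total (0.36 and 0.39, adjusted p = 0.00534 and 0.00081). Tpi1 also passed there without KI library 2 (0.21, adjusted p = 0.0201). Pgam1, the phosphoglycerate mutase, differed by -0.25 in KI against WT (adjusted p = 0.0151), which was lost without KI library 3 (-0.21, adjusted p = 0.0585) and by scaling to the column total (-0.02, adjusted p = 0.848). Pgam1 differed by 0.13 in KI_Chd7del against KI (adjusted p = 0.185), a difference that passed without KI_Chd7del library 1 (0.20, adjusted p = 0.0427). Aldoc, a minor aldolase, stood at 47, 30 and 26 in WT and at 323, 204 and 289 in KI, a rise of 2.97 (adjusted p = 1.45e-05), and fell by 1.42 in KI_Chd7del against KI (adjusted p = 0.00314). Bpgm, which diverts 1,3-bisphosphoglycerate to 2,3-bisphosphoglycerate in red cells, rose by 0.83 in KI against WT (adjusted p = 0.000214). It fell by 0.64 in KI_Chd7del against KI (adjusted p = 0.00247), and KI_Chd7del differed from WT by 0.18 (adjusted p = 0.216).

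Enzymes that set the level of fructose 2,6-bisphosphate, the activator of phosphofructokinase, did not all move one way. In the list of 14 regulators, 12 were tested, of which 6 rose and 4 fell in KI against WT, 2 rose and 3 fell in KI_Chd7del against KI, and 6 rose and 4 fell in KI_Chd7del against WT. With scaling to the column total the last counts were 6 and 2. Pfkfb2 rose in KI by 1.64 (SE 0.14, adjusted p = 1.12e-05), from 165, 165 and 180 to 452, 572 and 581, and fell by 0.88 in KI_Chd7del against KI (adjusted p = 0.00149). Pfkfb4 fell in KI by 1.84 (SE 0.17, adjusted p = 1.66e-05), from 4997, 6335 and 6290 to 1621, 2093 and 1282. Pfkfb3 fell by 0.99 in KI against WT (adjusted p = 5.4e-05). It was 0.60 higher in KI_Chd7del than in KI (adjusted p = 0.00284), and KI_Chd7del differed from WT by -0.39 (adjusted p = 0.0156). Arrdc4, which with Txnip restrains glucose uptake, rose in KI by 1.29 (adjusted p = 8.14e-06) and Pdk2, a kinase that inhibits pyruvate dehydrogenase, by 1.54 (adjusted p = 1.01e-05). Both were lower in KI_Chd7del than in KI, Arrdc4 by 0.61 (log2 -0.61, adjusted p = 0.00198) and Pdk2 by 0.90 (log2 -0.90, adjusted p = 0.000901). Txnip was 0.96 higher in KI than in WT (adjusted p = 2.98e-05) and 0.88 higher in KI_Chd7del than in WT (adjusted p = 0.000111). KI_Chd7del and KI differed in Txnip by -0.08 (adjusted p = 0.529).

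Of 13 genes of sugar and lactate transport, a list that shares Slc2a3 with the other glycolysis genes, 11 were tested. In KI against WT 5 rose and 4 fell, in KI_Chd7del against KI 2 rose and 5 fell, and in KI_Chd7del against WT 3 rose and 5 fell. The last counts became 4 and 3 on the scale of the column total. Slc16a1, the lactate transporter MCT1, fell in KI by 0.62 (SE 0.07, adjusted p = 7.15e-05). Slc16a3, the lactate exporter MCT4, had 3485, 4342 and 4311 in the WT libraries, 2843, 2526 and 2330 in those of KI, and 1523, 1768 and 1845 in those of KI_Chd7del. It was lower in KI_Chd7del than in KI (-0.58, adjusted p = 0.00362) and than in WT (-1.24, adjusted p = 4.28e-05). Slc2a8, an intracellular glucose transporter, followed Slc2a1 in direction, with a rise of 0.69 in KI (adjusted p = 8.93e-05) and a fall of 0.82 in KI_Chd7del against KI (adjusted p = 0.000166).

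The pentose phosphate pathway branches off at glucose 6-phosphate. All 8 genes of the pentose phosphate pathway, which supplies NADPH and ribose, fell in KI against WT, with a median of -0.99. In KI_Chd7del against KI 4 rose and 1 fell (median 0.31), and in KI_Chd7del against WT 7 fell (median -0.75). Scaled to the column total, 7 of the 8 fell in KI against WT, with a median of -0.76. Tkt, transketolase, had 74682, 83004 and 83937 in the WT libraries, 35845, 39025 and 31545 in those of KI, and 47146, 49030 and 48530 in those of KI_Chd7del. Its changes were -1.19 in KI against WT (adjusted p = 5.5e-06) and 0.45 in KI_Chd7del against KI (adjusted p = 0.00421). Rpia, which forms ribose 5-phosphate, fell by 1.13 in KI (adjusted p = 1.02e-06). Tkt and Rpia had the same order of groups as Gpi1, the enzyme at the branch. Of 18 genes of glycogen and gluconeogenesis, 14 were tested and 9 fell and 3 rose in KI against WT, with a median of -0.63. Gys1, muscle-type glycogen synthase, fell by 1.78 (adjusted p = 3.6e-06) and Gbe1, the branching enzyme, by 1.77 (adjusted p = 7.09e-06), while Pygb, a glycogen phosphorylase, rose by 0.92 (adjusted p = 2.67e-06). In KI_Chd7del against KI, 5 of these 14 rose and 1 fell (Pygb, -0.17, adjusted p = 0.0438, lost under 17 of 22 settings), and in KI_Chd7del against WT 2 rose and 7 fell (median -0.21). On the scale of the column total, 5 rose and 8 fell in KI against WT, and 6 rose and 7 fell in KI_Chd7del against WT (median 0.03).

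Entry of pyruvate into mitochondria was covered by 8 genes, of which 6 fell in KI against WT (4 when scaled to the column total). Mpc2, a subunit of the mitochondrial pyruvate carrier, fell by 1.07 (adjusted p = 2.84e-05) and Mpc1, the other subunit, by 0.49 (adjusted p = 0.000834). In KI_Chd7del against WT 5 fell, where scaling to the column total left 3 that fell and 1 that rose. In KI_Chd7del against KI, 1 of the 8 rose, Dld (0.17, adjusted p = 0.0178). Under the other scalings 2 (column total), 3 (total without late neutrophil genes) or 4 of the 8 rose (upper-quartile factors, and quantile normalisation). The call of Dld failed without KI library 1 or 3 or KI_Chd7del library 2 or 3 (0.057, 0.0648, 0.0583 and 0.0593).

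**Figure D4:**
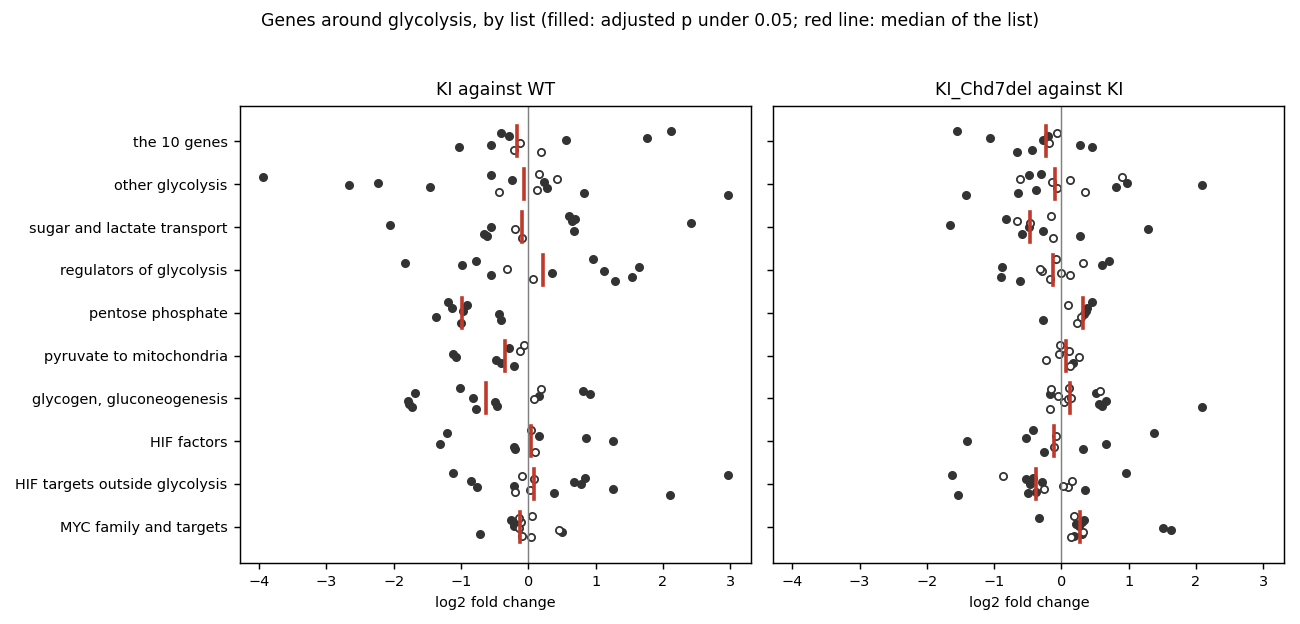
Log2 fold changes (horizontal axis) of the tested genes of each list (vertical axis) in KI against WT (left) and in KI_Chd7del against KI (right), which share the KI libraries. Filled points passed an adjusted p of 0.05 and red lines are medians. The pentose phosphate list has its median at -0.99 on the left and at 0.31 on the right.

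The genes of factors known to act on glycolysis were read beside the 10. Hif1a, the oxygen-regulated subunit of HIF, had 2961, 3055 and 3400 in the WT libraries, 6022, 5473 and 5518 in those of KI, and 3926, 4170 and 3739 in those of KI_Chd7del. It rose in KI by 0.85 (SE 0.07, adjusted p = 8.31e-06), fell by 0.52 in KI_Chd7del against KI (adjusted p = 0.000592) and was 0.33 above WT there (adjusted p = 0.00368). This is the order of groups seen in Slc2a1, Pfkp and Pfkl, but the level of its protein, which oxygen controls, was not measured. Epas1, which encodes HIF-2 alpha, was low, at 23, 23 and 34 in the WT libraries, 65, 49 and 83 in those of KI, and 19, 23 and 30 in those of KI_Chd7del. Egln3, a prolyl hydroxylase that marks HIF for removal and is itself a HIF target, fell in KI by 1.32 (adjusted p = 1.49e-06) and rose by 0.66 in KI_Chd7del against KI (adjusted p = 0.000332). Of the 9 tested genes in the list of HIF factors, 3 rose and 4 fell in KI against WT, 3 and 4 in KI_Chd7del against KI, and 1 and 4 in KI_Chd7del against WT. Column-total scaling turned these counts to 5 and 2, 3 and 4, and 3 and 1.

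HIF targets outside glycolysis moved in both directions. Of 15 tested, 7 rose and 4 fell in KI against WT (median 0.08), 2 rose and 8 fell in KI_Chd7del against KI (median -0.38), and 6 rose and 4 fell in KI_Chd7del against WT (median -0.12, and 0.12 with 7 and 3 on the scale of the column total). Plod2, a collagen lysyl hydroxylase, rose in KI by 2.96 (adjusted p = 5.2e-06) from 45, 36 and 39 to 385, 237 and 348, and fell by 1.63 in KI_Chd7del against KI (adjusted p = 0.000669). Vegfa, the vascular growth factor, fell by 1.12 in KI against WT (adjusted p = 0.000124). It was 0.96 higher in KI_Chd7del than in KI (adjusted p = 0.001), so the list did not move in a single direction. KI_Chd7del and WT differed in Vegfa by -0.15 (adjusted p = 0.394). Myc had 5197, 4179 and 3585 in the WT libraries, 6245, 5519 and 6438 in those of KI, and 8104, 6741 and 7818 in those of KI_Chd7del. Its mean was highest in KI_Chd7del, where the means of Aldoa, Pgk1 and Eno1 were lowest. A link between them was not tested, and MYC protein was not measured. Myc rose by 0.50 in KI (adjusted p = 0.0084) and by 0.82 in KI_Chd7del (adjusted p = 0.000882) against WT. The difference of Myc between KI_Chd7del and KI was 0.32 (log2 0.315, adjusted p = 0.0818), which passed without WT library 1 or 3 (adjusted p = 0.0318 and 0.049). Of 12 MYC family and target genes, 1 rose and 4 fell in KI against WT, 8 rose and 1 fell in KI_Chd7del against KI, and 4 rose and 2 fell in KI_Chd7del against WT. On the scale of the column total 2 rose and 1 fell, 7 rose and 1 fell, and 10 rose, in the same order (medians 0.11, 0.30 and 0.38).

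Markers of cell types moved between the groups together with these genes, and their part in the results was not tested. In bulk RNA, fewer cells of a type and less RNA per cell cannot be told apart. All 20 late neutrophil genes were tested and fell in KI against WT, 16 of 20 rose in KI_Chd7del against KI, and 17 fell in KI_Chd7del against WT. Their summed level was 12% to 14.3% of the library in the WT group, 1.15% to 3.05% in the KI group and 4.42% to 5.79% in the KI_Chd7del group, the same order of groups as Gpi1, Hk2, Hk3 and Tkt. Monocyte and macrophage markers rose in 14 of 15 genes in KI against WT and fell in 1, fell in 13 and rose in 2 in KI_Chd7del against KI, and took 0.0954% to 0.1% of the library in the WT group, 0.653% to 0.738% in the KI group and 0.292% to 0.327% in the KI_Chd7del group. That is the order seen in Slc2a1, Pfkp and Pfkl. Mast cell, basophil and eosinophil markers took 0.0709% to 0.118%, 0.306% to 0.477% and 0.216% to 0.309%. Their 15 genes included 9 that rose and 5 that fell in KI against WT.

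Erythroid markers took 0.255% to 0.307% of the library in the WT group, 0.444% to 0.609% in the KI group and 0.185% to 0.268% in the KI_Chd7del group. Of 15 genes, 7 rose and 4 fell in KI against WT, and 1 rose and 13 fell in KI_Chd7del against KI. In KI_Chd7del against WT, where Slc2a1 was higher, 0 of the 15 rose and 8 fell. Proliferation genes took 0.498% to 0.553% in the WT group, 0.465% to 0.52% in the KI group and 0.456% to 0.495% in the KI_Chd7del group, and 14 of 16 fell in KI against WT. In KI_Chd7del against KI 4 of these rose and 1 fell. Early granule, megakaryocyte, B cell and stem or progenitor markers took 0.916% to 1.06%, 0.00553% to 0.00838%, 0.0161% to 0.0209% and 0.0291% to 0.0339% in WT. In KI they took 0.447% to 0.613%, 0.0106% to 0.018%, 0.025% to 0.0393% and 0.0385% to 0.0463%. In KI_Chd7del the values were 0.775% to 1.07%, 0.0097% to 0.0158%, 0.0474% to 0.089% and 0.0518% to 0.069%. Of 8 megakaryocyte genes tested, 2 rose and 4 fell in KI against WT (median -0.75), although their summed share was higher in KI. In the same comparison, 0 of 10 early granule genes rose and 8 fell. Of 10 B cell genes 3 rose and 0 fell, and of 12 stem or progenitor genes 7 rose and 2 fell. No marker gene of these lists was at 0 in all libraries.

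Within KI, library 2 had the highest late neutrophil level (3.05%, against 1.9% and 1.15%) and the lowest erythroid level (0.444%, against 0.581% and 0.609%). It was also the KI library closest to the WT mean for Slc2a1, Hk2, Gpi1, Pfkl, Pfkp, Aldoa, Pkm, Hk3 and Tkt. For Pgk1, Eno1 and Ldha, KI library 1 was the closest. Without KI library 2, the changes in KI against WT were 2.30 for Slc2a1 (adjusted p = 3.18e-06), 1.85 for Pfkp (adjusted p = 1.9e-06), -0.67 for Hk2 (adjusted p = 9.47e-05) and -1.09 for Gpi1 (adjusted p = 1.77e-05). Library 2 being the closest to WT for these genes, leaving it out could only enlarge the differences.

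Glycolysis genes have many processed copies in the mouse genome, among which reads could be divided. The copies found in the table were low beside their parents: Eno1b was at 6 to 18 in any library, Ldha-ps2 at 52 to 111, Pgk1-rs7 at 10 to 27, Aldoart1 at 61 to 102 and Aldoart2 at 10 to 34.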

How the data were processed

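RNA from 9 libraries of c-KIT+ mouse marrow cells was analysed, 3 in each of 3 groups named by the labels. The authors deposited 1 table of 43629 Ensembl genes whose values are a score: read numbers divided by a factor per library and rounded to whole numbers. That reading rests on the values themselves. The submitters' processing notes name CASAVA 1.8.2, STAR 2.4, RSEM, DESeq2 and GRCm38, with no role or order. Because the deposited scores are not raw counts, no count test was used. The factors estimated from the rounding pattern were tested on simulated data. They describe depth only and entered no test.

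Values were taken as log2(value + 1) and fitted with limma 3.58.1 (R 4.3.3, variance trend, all 9 libraries, no block) for genes that reached 10 in at least 3 libraries. Fold changes are on that scale, which understates the change of low genes. Benjamini-Hochberg adjusted p-values cover all 15997 genes tested, and a call means an adjusted p under 0.05. The code was tested on simulated data. The 3 comparisons share libraries. Shares were compared by 2-sided exact permutation tests (Python 3.11.15, scipy 1.17.1), without correction over the family. Symbols, positions and the length of 1 transcript per gene came from GENCODE M21. Symbols were found for 42548 identifiers.

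No pairing by replicate number was seen. Deviations of same-numbered libraries correlated at -0.153 to 0.109, beside -0.167 to 0.208 for libraries of different numbers. With 3 libraries per group, this cannot exclude a shared batch. The members and lists were chosen with earlier results of these data known. All 10 genes were named, with up to 4 called genes of smallest adjusted p per comparison from each other list, the isozymes, Gapdh, Tpi1, Pgam1, Hif1a, Epas1, Myc, and the check genes Chd7, Myh11 and Kit. Pygb in KI_Chd7del against KI and the low copies were chosen after their values were seen. The alternatives covered the filter, pseudocount, scaling, variance model, libraries in the fit, the block and each library left out. Lengths from the union of exons were an alternative chosen after seeing the data.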

Additional observations from a re-analysis of the deposited data

How the results depend on the processing

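Of 660 values of the 10 genes over 22 alternative settings, 609 kept their direction and their side of the threshold, 39 lost the call, 8 gained it and 4 changed sign. The sign changes were Eno1 in KI against WT scaled to the column total (0.021), Ldha in KI against WT scaled to the column total (0.11) and with quantile normalisation (0.10), and Pkm in KI_Chd7del against KI with upper-quartile factors (0.01). None of these was a call, and the cause was not tested. Of the 10 genes, 2 were called lower in KI against WT when scaled to the whole column total and with quantile normalisation, in place of 4. Of the 15997 genes tested, 2506 and 5378 were called lower under these settings, in place of 4345. Among the 10, genes called higher in KI_Chd7del against KI numbered 1 with no filter, without the trend and with only the 2 groups compared, in place of 2. With a library left out they numbered 1 to 2. Scaling to the column total moved the median of all genes to 0.25 in KI against WT and 0.26 in KI_Chd7del against WT, and the share of higher calls from 53.9% to 74.2% and from 49.7% to 78.7%. Without the late neutrophil genes in the total, the latter was 64.9%. In KI_Chd7del against KI that share went from 43.4% to 57% (quantile), 57.4% (upper quartile) and 53.8% (total without late neutrophil genes). With the late neutrophil genes left out of the total, the share of the 10 genes in the library differed by -0.097 points in KI against WT and -0.148 in KI_Chd7del against WT. The small differences in the Hk2 share of hexokinases changed sign without gene lengths (-0.13 in KI against WT, -0.132 in KI_Chd7del against WT), without KI library 2 (-0.096 in KI against WT, 0.168 in KI_Chd7del against KI) and without KI_Chd7del library 3 (-0.05 in KI_Chd7del against WT). Leaving out 1 library each, that share differed by -0.096 to 0.421 points in KI against WT, by -0.349 to 0.168 in KI_Chd7del against KI and by -0.05 to 0.192 in KI_Chd7del against WT. The Pfkl share in KI_Chd7del against WT turned to 0.549 points with exon-union lengths.

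With the replicate number as a block, 9121, 5952 and 7411 genes were called in the 3 comparisons, beside 9429, 6464 and 7735 without it. What samples of 1 number share, the labels do not say. Among the 10 genes the replicate block ended 1 call, Pgk1 in KI_Chd7del against KI (-0.19, adjusted p = 0.0541).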
